A study of Homo sapiens with 6 samples.

Results

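Receptor tyrosine kinases outside the ERBB family, together with a set of their ligands, were examined in T24 cells, an established human bladder cancer line known to carry an activated HRAS gene. The set was defined by gene symbol and held 50 of the 20442 genes in the deposited count table, 35 receptors and 15 ligands, and all 50 symbols were found there. It comprised the TAM receptors with GAS6, the MET and FGF groups, the insulin receptors, the PDGF group with KIT, the VEGF and TIE receptors, the Eph receptors with the ephrins, and 7 further receptors. The cells had been given 24 h to attach and were then exposed for 24 h to either a control siRNA (si-NC) or an siRNA against KNSTRN (si-KNSTRN), a gene of the mitotic spindle. All 6 libraries came from this single line, 3 per group, and the design text calls the replicates biological.

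Receptor tyrosine kinases are membrane proteins that bind a ligand outside the cell, pair up, and phosphorylate themselves and adaptor proteins inside it, feeding the RAS, PI3K and STAT pathways. Soluble ligands such as GAS6, FGFs and PDGFs can act on the cell that makes them or on its neighbours, whereas ephrins are themselves attached to the membrane and act at cell contacts. FGFR3, MET, AXL and EPHA2 are all much studied in bladder cancer. Which members a line transcribes sets which ligands it can respond to, so detection is given for every member.

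Libraries held 16386799 to 20596074 counted reads, and a gene with no read could still have had up to 3 reads, or 0.146 to 0.183 CPM (reads scaled to a common library size) depending on the library, for counting error alone. KNSTRN fell from 40.5 ± 1.92 to 13.1 ± 0.821 TMM-scaled CPM (SD, n = 3 each), so the targeted gene followed the labels. The keratin genes KRT7, KRT8 and KRT18 were abundant in both groups, between 843 and 1186 CPM in the group means (KRT7 called higher, KRT8 and KRT18 not called), but KRT5 and CDH1 had no read in any library and EPCAM stood at 0.722 and 0.695 CPM. Of 4 mesenchymal genes, VIM (6474 to 3830 CPM), FN1 (16167 to 13872 CPM) and CDH2 (145 to 128 CPM) were called lower in si-KNSTRN and ZEB1 (41.0 to 54.2 CPM) was called higher. Of the 12 urothelial or epithelial markers examined, 6 had 3 reads or fewer in every library: KRT5, CDH1, TP63, UPK1B, UPK2 and UPK3A. KRT19 (1.03 CPM in si-NC and 0.801 in si-KNSTRN) and GATA3 (1.64 and 1.37 CPM) were low as well. The label of tumor epithelial cells was thus met by KRT7, KRT8 and KRT18 and not by the other markers.

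Transcripts of the receptor and ligand genes moved in both directions after si-KNSTRN. AXL, the most abundant receptor of the set in si-NC, fell 2.93-fold together with its ligand gene GAS6, whereas the related receptors MERTK and TYRO3 rose. FGF2 and FGF5 rose while FGFR1 and FGFR4 fell. The ephrin genes EFNA1 and EFNA3 fell 2.53-fold and 2.25-fold, and EFNB1 rose 1.78-fold. MET and EPHA2, also among the most abundant receptors, had log2 fold changes of -0.14 and 0.09.

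By edgeR's quasi-likelihood test with Benjamini-Hochberg adjustment over all genes tested, 15 of the 39 members tested were higher in si-KNSTRN, 14 were lower and 10 were not called at an adjusted p under 0.05. Among all 12650 genes tested, 62.5% were called, 31.2% higher and 31.3% lower, so a call by itself was common in this comparison. At a fold of at least 1.5, 17 members were called, 9 higher and 8 lower, beside 19.2% of all genes tested, and at a fold of at least 2 there were 9 members, beside 6.43%. The median log2 fold change (log2FC, si-KNSTRN over si-NC) was -0.04 over the members tested and -0.01 over all genes tested, and the median absolute value was 0.44 and 0.28. CPM ranges of the groups did not overlap for 30 of the 39 members, against 67.3% of all genes. The members were chosen with earlier results of these data known. EPHA3 and DDR2, both in the counts by fold, each met the filter on low counts through a single group. These values therefore cannot show whether the set moved more than other genes. Receptors (9 higher, 9 lower of 25 tested) and ligands (6 higher, 5 lower of 14 tested) both divided. In bulk RNA, fewer cells that express a gene and less RNA per cell cannot be told apart.

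**Figure D1:**
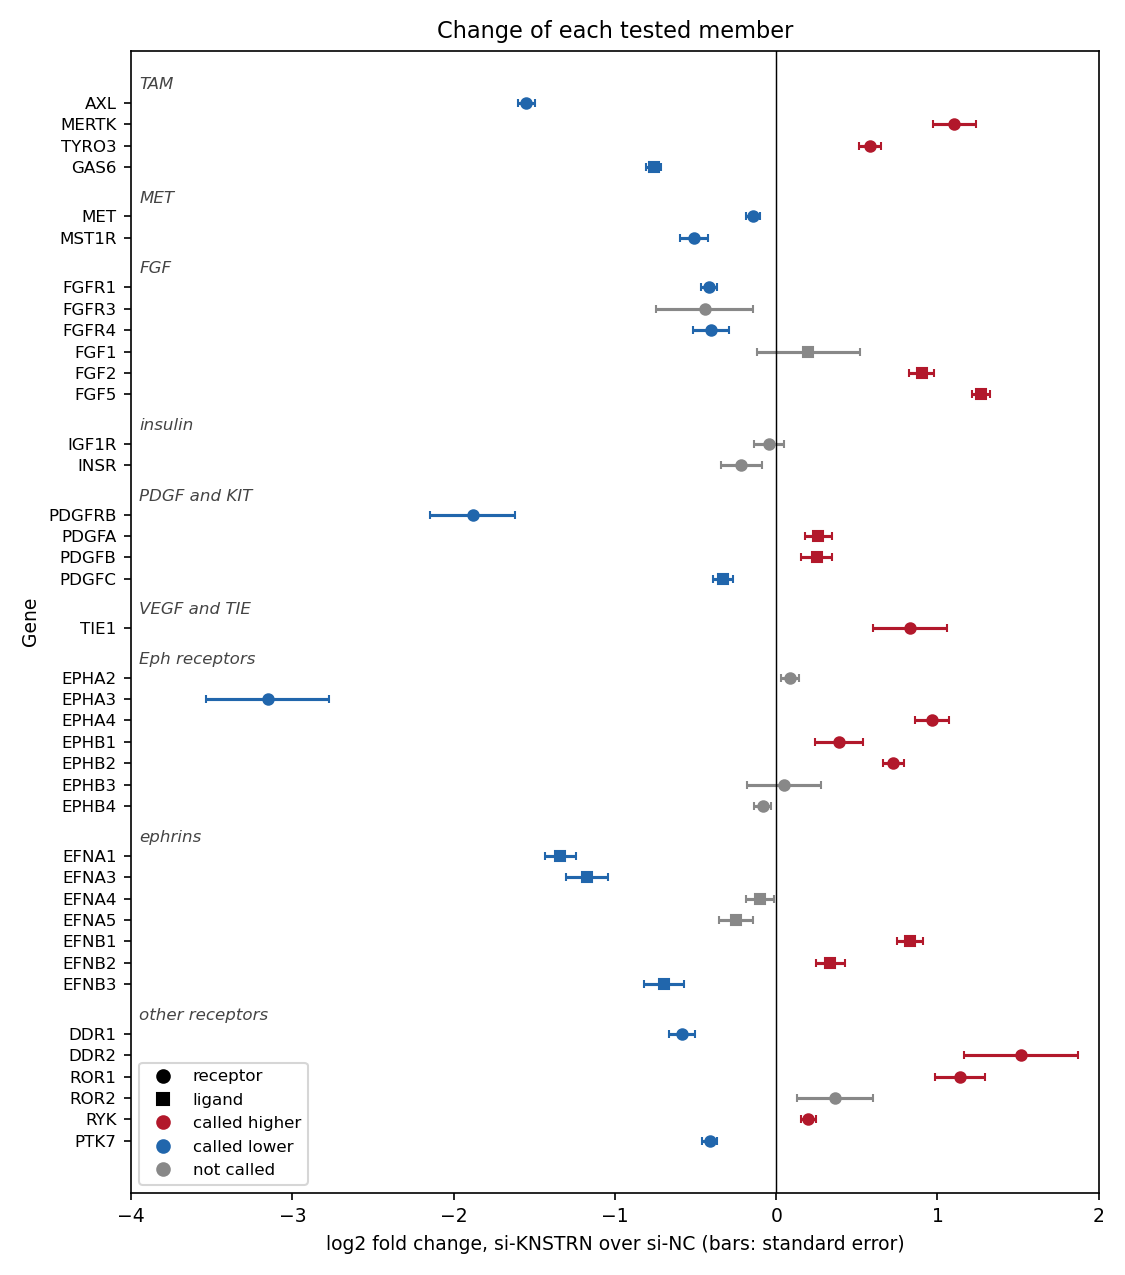
Log2 fold change of si-KNSTRN over si-NC for the 39 members tested (x axis, no unit; bars are standard errors), listed by group on the y axis, with circles for receptors and squares for ligands. The points spread from -3.15 for EPHA3 to 1.52 for DDR2, and members of the TAM, FGF, Eph and ephrin groups lie on both sides of 0. EPHA3 met the filter on low counts through si-NC alone and DDR2 through si-KNSTRN alone.

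Detection was uneven between groups. The filter on low counts removed 11 members, of which none had more than 8 reads in any library. HGF and FLT4 had no read in any of the 6 libraries. FGFR2 had 1 read in all, in si-NC library 3. PDGFRA had 1 to 6 reads per library, KIT 2 to 8, RET 2 to 8, KDR 0 to 6, EPHA1 0 to 5, FLT1 0 to 4, EPHB6 0 to 3 and TEK 0 to 2. HGF and FLT4, without reads, could not be fitted at all. Fitted without the filter, none of the others among these 11 was called, and the smallest adjusted p by edgeR was 0.0739, for KIT. EPHA3 and FGFR3 met the filter through the si-NC libraries alone and DDR2 through the si-KNSTRN libraries alone, so that large changes were favoured among such genes. The counts of called members are therefore a description of what passed, not of the 50 genes.

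Levels of different genes were compared as TMM-scaled CPM per kilobase of transcript. In si-NC the receptors ranked AXL (75.9 ± 2.09), EPHA2 (50.2 ± 1.69), MET (39.4 ± 1.20), PTK7 (34.7 ± 0.931), RYK (24.8 ± 0.981) and EPHB4 (21.0 ± 0.314; SD, n = 3). In si-KNSTRN the order was EPHA2 (53.3 ± 3.97), MET (35.6 ± 0.307), RYK (28.5 ± 0.504), PTK7 (26.1 ± 0.908) and AXL (25.9 ± 1.78), where PTK7 and AXL differed by less than their spread. AXL thus went from rank 1 to rank 5, also when the longest transcript was used for the length. Its part of the summed level of the 35 receptor genes went from 25.1% to 10.4%, and that sum went from 303 ± 5.78 to 250 ± 5.79. GAS6 was the most abundant ligand gene in both groups, at 59.3% of the summed ligand level in si-NC and 43.15% in si-KNSTRN. FGF5 moved from rank 4 to rank 2 among ligands, from 5.31% to 15.8%. With the longest transcript it moved from rank 5 to rank 2.

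**Figure D2:**
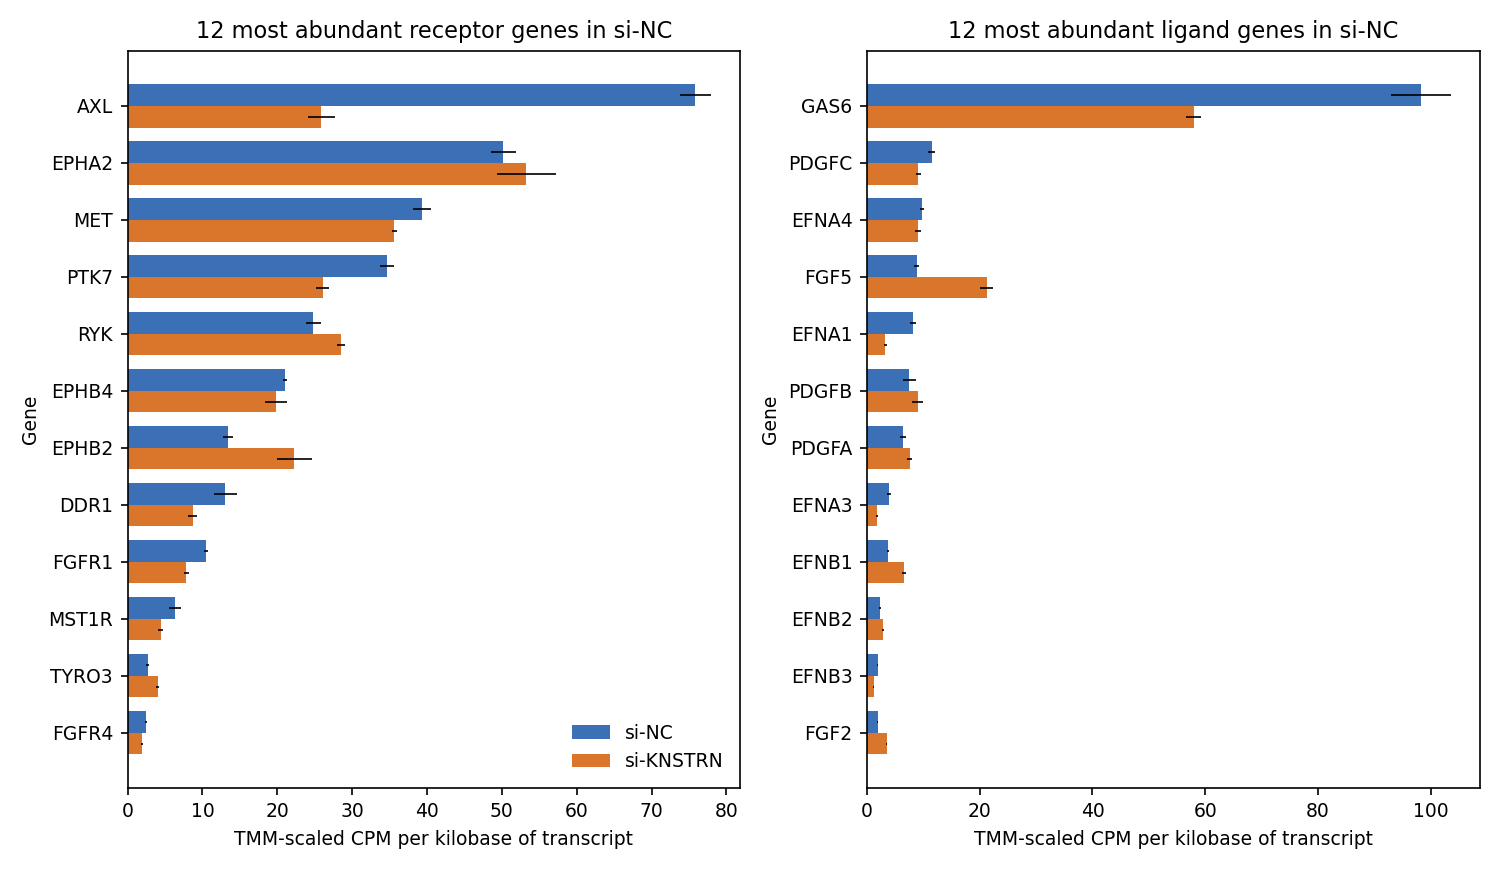
Mean level in TMM-scaled CPM per kilobase of transcript (x axis, starting at 0; bars are SD over 3 libraries) of the 12 most abundant receptor genes (left) and ligand genes (right) in si-NC. AXL drops from 75.9 to 25.9 while EPHA2 stays near 50, and FGF5 rises from 8.79 to 21.2.

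The TAM group (TYRO3, AXL and MERTK, receptors for GAS6 and protein S that act in survival, clearance of dead cells and resistance to kinase inhibitors) split between its receptors. AXL (chromosome 19, 41219203 to 41261766, GRCh38) had 356, 370 and 351 CPM in si-NC libraries 1 to 3 and 129, 126 and 113 CPM in si-KNSTRN libraries 1 to 3. All si-KNSTRN libraries lay far below all si-NC libraries, and the log2FC was -1.55 (SE 0.05, edgeR adjusted p = 6.4e-13). MERTK (chromosome 2, 111898479 to 112029561) went from 7.73, 5.60 and 5.71 CPM to 14.1, 11.6 and 15.6 CPM, without overlap (log2FC 1.10, SE 0.13, edgeR adjusted p = 1.9e-06). TYRO3 went from 22.8, 22.5 and 20.6 CPM to 31.8, 32.7 and 34.3 CPM, a log2FC of 0.58 (SE 0.07). It too was higher in every si-KNSTRN library.

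GAS6 (chromosome 13, 113820549 to 113864067), which encodes the vitamin K-dependent ligand of these receptors, had 252, 253 and 229 CPM in si-NC and 148, 144 and 141 CPM in si-KNSTRN. Its log2FC was -0.76 (SE 0.05, edgeR adjusted p = 1.5e-09). PROS1, the gene of protein S, the other TAM ligand, had a log2FC of -0.16 (SE 0.07) and was not called (edgeR adjusted p = 0.061). Within each library, the per-length level of AXL was 38.5, 55.2 and 51.3 times that of MERTK in si-NC and 7.61, 9.10 and 6.06 times in si-KNSTRN. AXL over TYRO3 went from between 27.1 and 29.6 to between 5.70 and 7.02, and GAS6 over AXL from between 1.24 and 1.34 to between 2.17 and 2.38. These ratios do not depend on the scaling between libraries, and the pairs were chosen after their values were seen. AXL therefore remained the most abundant of the 3 TAM receptors in every library, by a smaller margin after si-KNSTRN. Summed over the 4 TAM genes, the per-length level went from 178 ± 7.19 to 91.4 ± 2.64.

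**Figure D3:**
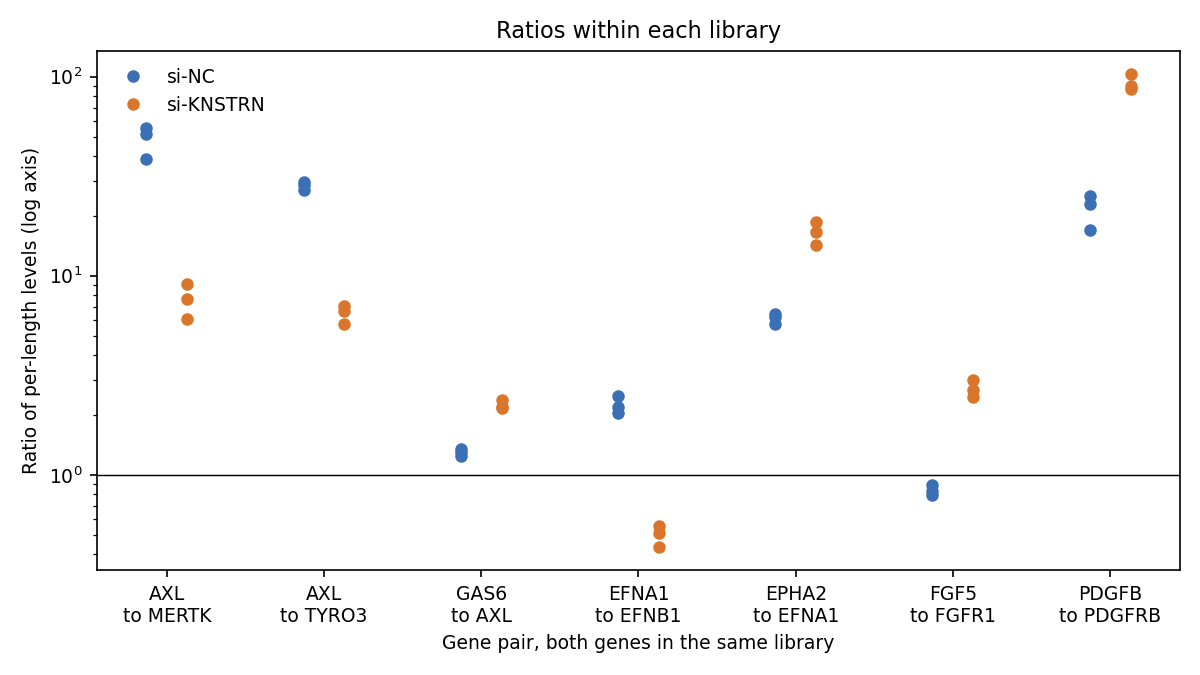
Ratio of the per-length levels of 2 genes within the same library (y axis, log scale, no unit) for 7 gene pairs (x axis), with 1 point per library. In each pair the 3 si-NC points and the 3 si-KNSTRN points are separate, for example 38.5 to 55.2 against 6.06 to 9.10 for AXL to MERTK.

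The 3′ untranslated region (UTR) of AXL holds the 6-base word TGAGTA, which an earlier analysis of these data had found more often in genes called lower. The site, in the GENCODE 29 transcript at chr19:41261689-41261712 (plus strand, GRCh38), is printed 5′ to 3′ with the word in capitals and 9 bases on each side, because AXL had the largest fall among the abundant members.
AXL: ctcaccttcTGAGTAcagagtgtg
It begins at base 1794 of a 3′ UTR of 1862 bases. No label names the siRNA sequences.

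The MET group had its receptor without its ligand. MET, the receptor of hepatocyte growth factor (chromosome 7, 116672390 to 116798386), had 256, 257 and 270 CPM in si-NC and 235, 239 and 235 CPM in si-KNSTRN. The groups did not overlap, but the difference was small, a log2FC of -0.14 (SE 0.04, edgeR adjusted p = 0.0088). HGF, which encodes that ligand, had no read. MST1R, the receptor of macrophage-stimulating protein, went from 31.1, 30.4 and 24.6 CPM to 20.2, 21.6 and 18.7 CPM. It fell by 0.51 on the log2 scale (SE 0.09), and every si-KNSTRN library was below every si-NC library. The gene of its ligand, MST1, fell by 0.27 (SE 0.10, edgeR adjusted p = 0.021) and shares 17 exonic bases with APEH on the other strand.

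In the FGF group, the ligand genes FGF2 and FGF5 rose and the receptor genes FGFR1 and FGFR4 fell. FGF5 (chromosome 4, 80266599 to 80336680), a secreted FGF known from control of the hair cycle, had 38.9, 38.6 and 42.6 CPM in si-NC and 91.3, 96.3 and 102 CPM in si-KNSTRN. It had the largest rise among members with more than 10 CPM, a log2FC of 1.27 (SE 0.06, edgeR adjusted p = 1.6e-11). FGF2, the gene of basic FGF, a growth factor for many cell types, went from 11.5, 12.3 and 13.2 CPM to 22.9, 22.2 and 24.0 CPM (log2FC 0.90, SE 0.08). Both ligands were higher in every si-KNSTRN library than in any si-NC library.

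FGF2 shares 637 exonic bases, 9.4% of its own, with NUDT6 on the other strand. NUDT6 rose too, by a log2FC of 0.48 (SE 0.08), and since the strand setting of the counting is not given, reads of the shared part cannot be told apart. The 3′ UTR of FGF2 holds the word TGAGTA at 2 places, of which the first is at chr4:122895032-122895055 (plus strand, GRCh38), shown as a counterpart to the AXL site in a gene that rose.
FGF2: agcactgccTGAGTAgttttgatc
FGF1, which binds all FGF receptors, was low, with 10 to 17 reads per library, and was not called (log2FC 0.20, SE 0.32).

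FGFR1, the most abundant FGF receptor here, had 60.5, 63.0 and 61.9 CPM in si-NC and 48.0, 46.6 and 44.1 CPM in si-KNSTRN. It fell by 0.42 on the log2 scale (SE 0.05, edgeR adjusted p = 2.9e-06), without overlap. FGFR4, a receptor for FGF19-type ligands, fell by 0.40 (SE 0.11, edgeR adjusted p = 0.0051) from 7.84 ± 0.476 to 5.92 ± 0.485 CPM. FGFR3, the FGF receptor often altered in urothelial tumors, had 26, 14 and 17 reads in si-NC and 10, 17 and 16 in si-KNSTRN, and these overlapped (log2FC -0.44, SE 0.30, edgeR adjusted p = 0.21). FGF5 over FGFR1 per length was 0.833, 0.793 and 0.893 in si-NC libraries 1 to 3 and 2.47, 2.68 and 2.99 in si-KNSTRN libraries 1 to 3, a crossing from below to above 1 in every library.

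Insulin and IGF1 receptor genes were not called. IGF1R, the main receptor of insulin-like growth factors, had 12.6, 13.6 and 14.0 CPM in si-NC and 12.2, 14.7 and 12.1 CPM in si-KNSTRN (log2FC -0.04, SE 0.10, edgeR adjusted p = 0.71). INSR, the insulin receptor gene, had 6.95, 6.59 and 6.10 CPM in si-NC and 4.80, 6.37 and 5.76 CPM in si-KNSTRN (log2FC -0.22, SE 0.13, edgeR adjusted p = 0.15). Both genes overlapped between the groups.

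In the PDGF group, ligand genes were well detected and receptor genes scarcely. PDGFRB, a receptor typical of fibroblasts and pericytes (chromosome 5, 150113837 to 150155872), had 44, 24 and 44 reads in si-NC and 11, 10 and 10 reads in si-KNSTRN. That is 2.03 ± 0.478 and 0.550 ± 0.0098 CPM, a log2FC of -1.88 (SE 0.26, edgeR adjusted p = 1.1e-05) at low counts. The 4 fibroblast markers examined summed to 11.9 to 14.2 CPM in si-NC and 10.1 to 11.7 CPM in si-KNSTRN, nearly all of it from COL1A1, which was called lower, while COL1A2 had no read and DCN and LUM had 1 read each. A part of other cells in the PDGFRB counts was not tested.

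PDGFC was the most abundant PDGF gene per length in si-NC and had 47.2, 50.6 and 45.6 CPM there against 38.6, 39.1 and 36.3 CPM in si-KNSTRN (log2FC -0.33, SE 0.06, edgeR adjusted p = 1.7e-04). PDGFA went the other way, from 15.8, 14.8 and 13.2 CPM to 16.6, 18.6 and 17.3 CPM (log2FC 0.26, SE 0.09, edgeR adjusted p = 0.014). That call was lost without si-NC library 3 (adjusted p = 0.065) or si-KNSTRN library 2 (adjusted p = 0.069). PDGFB had 30.5, 23.0 and 25.0 CPM in si-NC and 30.7, 34.8 and 28.5 CPM in si-KNSTRN, so the groups overlapped although the gene was called (log2FC 0.25, SE 0.10, edgeR adjusted p = 0.029). It was not called with upper-quartile factors (adjusted p = 0.072), nor when si-NC library 2, si-NC library 3 or si-KNSTRN library 2 was left out (adjusted p = 0.15, 0.12 and 0.17 by edgeR). PDGFB over PDGFRB per length ran from 16.9 to 25.2 in si-NC and from 86.5 to 103 in si-KNSTRN.

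Of the VEGF and TIE receptors, which are best known from endothelial cells, TIE1 alone was tested. It had 20, 14 and 21 reads in si-NC and 32, 39 and 30 reads in si-KNSTRN, without overlap (log2FC 0.83, SE 0.23, edgeR adjusted p = 0.0051). The 4 endothelial markers PECAM1, CDH5, VWF and CLDN5 summed to 0.435 to 0.887 CPM in si-NC and 0.997 to 1.42 CPM in si-KNSTRN, mostly from PECAM1, which was not called. A part of endothelial transcripts in the TIE1 difference was not tested.

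Eph receptors, the largest family of receptor tyrosine kinases, bind ephrins on neighbouring cells. EPHA2 was the most abundant, with 199, 206 and 192 CPM in si-NC and 194, 217 and 224 CPM in si-KNSTRN. It was not called (log2FC 0.09, SE 0.05, edgeR adjusted p = 0.17), except without si-KNSTRN library 1 (adjusted p = 0.020). EPHB4, known from venous identity, went from 92.6, 90.6 and 89.9 CPM to 80.6, 84.2 and 93.2 CPM. It was not called either (edgeR adjusted p = 0.19), but was with upper-quartile factors (adjusted p = 0.044) and without si-KNSTRN library 3 (adjusted p = 0.024).

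EPHB2, a B-type receptor known from intestinal crypts and axon guidance (chromosome 1, 22710839 to 22921500), rose from 49.8, 51.8 and 47.0 CPM to 74.2, 80.7 and 91.0 CPM, without overlap (log2FC 0.73, SE 0.07, edgeR adjusted p = 7.9e-08). EPHA4, which binds ephrins of both types, rose from 5.52, 5.60 and 5.49 CPM to 10.5, 10.1 and 11.8 CPM (log2FC 0.96, SE 0.10). EPHB1 had 3.94, 3.11 and 3.68 CPM in si-NC and 4.25, 5.43 and 4.47 CPM in si-KNSTRN (log2FC 0.39, SE 0.15, edgeR adjusted p = 0.032). That call was lost with DESeq2 (adjusted p = 0.086), with upper-quartile factors (edgeR adjusted p = 0.054), and when si-NC library 2, si-NC library 3 or si-KNSTRN library 2 was left out (adjusted p = 0.12, 0.059 and 0.17 by edgeR). EPHB3 had 23 to 32 reads per library and overlapped between the groups (log2FC 0.05, SE 0.23).

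EPHA3 (chromosome 3, 89107524 to 89482134), an Eph receptor with several GPI-anchored ligands, showed the largest fall of any member tested. It had 38, 31 and 20 reads in si-NC and 4, 2 and 4 in si-KNSTRN, which is 1.63 ± 0.463 and 0.176 ± 0.0569 CPM. The log2FC was -3.15 (SE 0.38, edgeR adjusted p = 2.1e-06), and the si-KNSTRN libraries were all below the filter, so that a fall was favoured. Its 3′ UTR holds the word TGAGTA at 3 places, all of which are shown because it fell the most (GRCh38, plus strand, chr3:89479618-89479641, chr3:89480606-89480629 and chr3:89481087-89481110 in this order, with the word in capitals).
EPHA3 site 1: actcaaataTGAGTAcaaatgcct
EPHA3 site 2: gccaatgcaTGAGTAaaaaaaaaa
EPHA3 site 3: atatgatctTGAGTAtaagaaatg

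**Figure D4:**
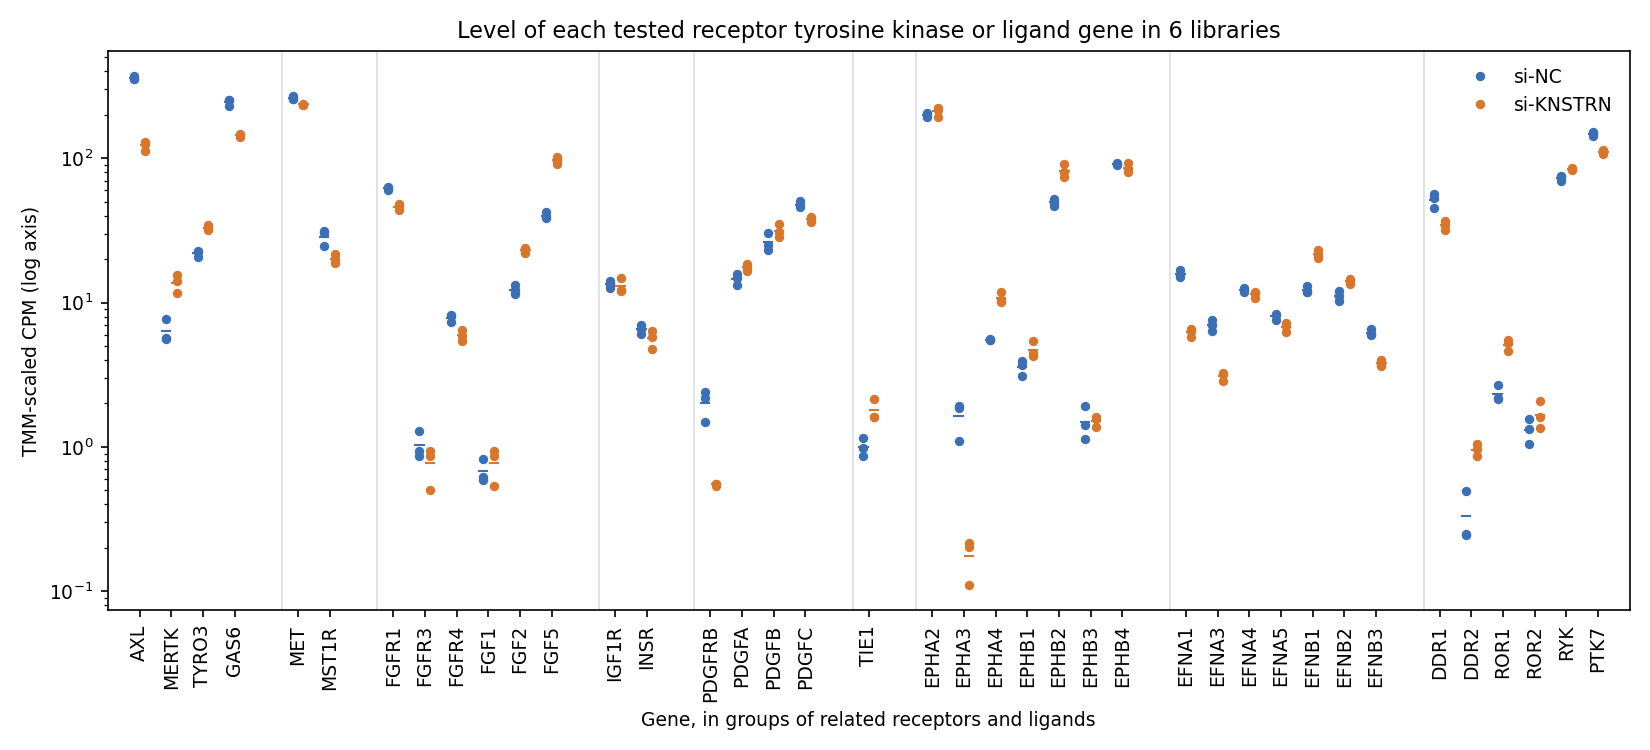
TMM-scaled CPM of each tested member in each library (y axis, log scale), with genes grouped on the x axis, 1 point per library and a short line at the mean. AXL separates at 351 to 370 against 113 to 129 CPM, whereas points of EPHA2, EPHB4, IGF1R and PDGFB overlap between the groups.

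Among ephrins, the A-type genes, whose products are held by a GPI anchor, were lower or not called, and the transmembrane B-type genes divided. EFNA1 (chromosome 1, 155127460 to 155134857), a ligand of EPHA2, fell from 16.9, 15.6 and 15.0 CPM to 6.57, 6.37 and 5.81 CPM (log2FC -1.34, SE 0.10, edgeR adjusted p = 5.2e-09). EFNA3, which lies close to it (155078872 to 155087538), fell from 7.59, 7.03 and 6.37 CPM to 3.19, 3.27 and 2.85 CPM (log2FC -1.17, SE 0.13). Both genes were lower in every si-KNSTRN library. EFNA4, the third gene at this place (155063731 to 155069553) and the most abundant ephrin per length, had 12.7, 12.3 and 11.9 CPM in si-NC and 10.7, 11.7 and 11.9 CPM in si-KNSTRN. It was not called (log2FC -0.10, SE 0.09, edgeR adjusted p = 0.32), so that neighbouring genes on chromosome 1 had values of different size. EFNA5 had 7.64, 8.40 and 8.24 CPM against 7.23, 6.87 and 6.30 CPM (log2FC -0.25, SE 0.11, edgeR adjusted p = 0.053). It was called with upper-quartile factors (adjusted p = 0.027), with a filter of CPM of at least 1 (adjusted p = 0.048), and without si-KNSTRN library 1 (adjusted p = 0.045).

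EFNB1 (chromosome X, 68828997 to 68842147), a ligand of EPHB receptors, rose from 11.8, 13.1 and 11.8 CPM to 20.5, 21.4 and 23.0 CPM (log2FC 0.83, SE 0.08, edgeR adjusted p = 1.8e-07). EFNB2, the partner of EPHB4 in vessels, rose from 11.2 ± 0.854 to 14.1 ± 0.587 CPM (log2FC 0.34, SE 0.09). EFNB3, known from the midline of the nervous system, fell from 6.11, 6.53 and 5.93 CPM to 3.79, 3.66 and 3.98 CPM (log2FC -0.70, SE 0.12). Summed per length, the 4 A-type ephrins went from 23.4 ± 1.08 to 15.3 ± 0.358 and the 3 B-type ephrins from 7.84 ± 0.182 to 10.5 ± 0.336. EFNA1 over EFNB1 per length was 2.48, 2.05 and 2.20 in si-NC and 0.551, 0.513 and 0.435 in si-KNSTRN, from above to below 1 in every library. EPHA2 over its ligand EFNA1 went from between 5.71 and 6.42 to between 14.3 and 18.7.

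Of the 7 remaining receptors, DDR1 and DDR2, which bind collagen, moved in opposite directions. DDR1, the epithelial form, fell from 53.0, 56.7 and 44.9 CPM to 36.7, 34.4 and 31.8 CPM (log2FC -0.59, SE 0.08, edgeR adjusted p = 7.6e-06). DDR2, the form typical of connective tissue, had 5, 4 and 9 reads in si-NC and 19, 19 and 16 in si-KNSTRN (log2FC 1.52, SE 0.35, edgeR adjusted p = 0.0013), so its rise rests on few reads. DDR2 met the filter through the si-KNSTRN libraries alone, so that a rise was favoured there. It was not tested with the filter of CPM of at least 1. ROR1, a Wnt-binding receptor known from embryos and some tumors, rose from 2.17, 2.67 and 2.14 CPM to 4.60, 5.54 and 5.22 CPM (log2FC 1.14, SE 0.15, edgeR adjusted p = 7.0e-06). Its relative ROR2 had 27, 25 and 19 reads against 41, 29 and 25, with overlap, and was not called (log2FC 0.37, SE 0.24).

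PTK7, a pseudokinase of planar cell polarity and the most abundant of these 7 genes per length in si-NC, had 150, 151 and 144 CPM there and 113, 114 and 107 CPM in si-KNSTRN. It fell by 0.41 on the log2 scale (SE 0.05, edgeR adjusted p = 9.0e-07), without overlap. RYK, another Wnt receptor with a pseudokinase domain, was higher by a log2FC of 0.20 (SE 0.05, edgeR adjusted p = 0.0015), from 73.0 ± 2.89 to 83.9 ± 1.48 CPM.

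The word TGAGTA, searched on the transcript strand in the 3′ UTR, was present in 8 of the 39 members tested (20.5%), against 27.3% of the 11951 tested genes whose 3′ UTR reached 50 bases. It was found in 3 of the 14 members called lower (AXL, FGFR1 and EPHA3), in 3 of the 15 called higher (FGF2, EFNB2 and DDR2) and in 2 of the 10 not called (FGF1 and EFNA5). EPHA3 and DDR2 each met the filter through a single group, so the direction of their calls was favoured. Over all genes searched, 35.5% of those called lower, 19.4% of those called higher and 27.1% of those not called held it. Genes with the word had longer 3′ UTRs, with a median of 2809 bases against 755 in genes without it. A part of the word in the changes of the members was not tested.

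**Figure D5:**
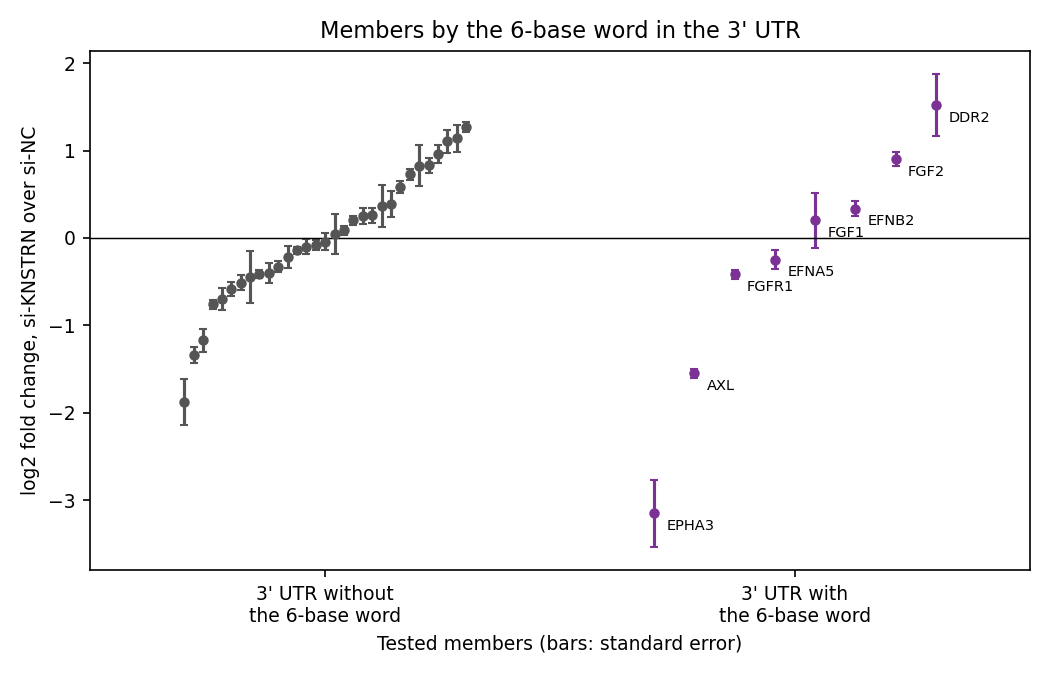
Log2 fold change of si-KNSTRN over si-NC (y axis; bars are standard errors) for the 31 tested members whose 3′ UTR lacks the 6-base word (left) and the 8 that hold it (right, with names). Both sets reach above and below 0, and the 8 run from -3.15 for EPHA3 to 1.52 for DDR2. EPHA3 met the low-count filter through si-NC alone and DDR2 through si-KNSTRN alone, which favoured large values in these directions.

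Genes that act with these receptors were taken from a list of 152 adaptors, regulators, further ligands and receptors, proteases and binding proteins. Of 103 tested, 33 were higher and 37 lower, 68.0% called beside 62.5% of all genes tested, with a median log2FC of -0.01. Adaptors and proximal effectors had 9 of 27 higher and 8 lower. SH2B3, an adaptor that damps signals of receptors such as KIT, rose from 70.1 ± 1.69 to 131 ± 8.53 CPM (log2FC 0.90, SE 0.05, edgeR adjusted p = 5.3e-10), and AKT1 and the PI3K subunit gene PIK3R2 rose by log2FCs of 0.48 and 0.52. Negative regulators had 10 of 26 higher and 9 lower. GRB10, an inhibitor of insulin and IGF1 receptor signalling, rose by a log2FC of 0.94 (SE 0.05) and the receptor phosphatase gene PTPRK by 1.04 (SE 0.05), whereas SOCS5 fell by 0.94 (SE 0.07).

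Other ligand genes had 7 of 16 higher and 5 lower, 75% called beside 62.5% of all genes tested. KITLG, which encodes the ligand of KIT, rose from 5.08 ± 0.895 to 15.6 ± 2.23 CPM (log2FC 1.61, SE 0.13, edgeR adjusted p = 2.0e-08), while KIT itself had at most 8 reads in a library. CSF1 rose by a log2FC of 1.15 (SE 0.08). VEGFA fell by 0.88 (SE 0.06), whereas VEGFC and PGF rose by log2FCs of 0.52 (SE 0.045) and 0.91 (SE 0.13) and VEGFB was not called. At low counts, the TEK ligand gene ANGPT1, the RET pathway ligand gene GDNF and FGF11 fell by 1.11, 1.03 and 1.28. FGF11 and FGF13 were listed here by their FGF family name, and whether they act as receptor ligands was not examined. GDNF met the filter through the si-NC libraries alone, so that a fall was favoured there. Among 18 receptor tyrosine kinases outside the set, 3 were tested: LMTK2 had a log2FC of 0.46 (SE 0.07), LMTK3 of -1.43 (SE 0.29) and STYK1, not called, of -0.07 (SE 0.10).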

How the data were processed

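The authors' deposited table gives whole-number read counts, not normalized, with 1 column for each of 6 T24 libraries, whose groups and replicate numbers came from the sample titles. HISAT2 2.0.1 with featureCounts, on the build GRCh38, and FastQC 0.11.5 with fastp 0.20.0 are named, per the submitters' processing notes. The annotation, strand setting and handling of multiply aligned reads are not stated by the labels used here, and reads of overlapping genes may be mixed. Reads carry no stated molecular identifiers, so limits from 3 reads cover counting error only. Replicates differed by more than sampling noise (chi-square per degree of freedom 2.21 to 10.7), and none was merged. The highest values, 10.7 and 7.25, were those of si-KNSTRN library 3 with libraries 1 and 2 of its group. Those libraries 1 and 2 gave 2.68 with each other, and pairs within si-NC gave 2.21 to 4.49.

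Counts were analysed with edgeR 4.0.16 in R 4.3.3 (filterByExpr with a minimum count of 10, TMM scaling, two-sided quasi-likelihood test between the 2 groups without covariates), with p-values adjusted by Benjamini-Hochberg over 12650 genes and calls at 0.05. The test was also run on simulated counts with the same spread for all genes, a coefficient of variation of 5.47% taken from the real fit. Such counts lack the uneven spread of the real replicates, so that run checked the code and not the error rate here. Alternatives were other scalings, DESeq2 1.42.0, limma 3.58.1 (voom), other filters, a replicate block, omission of each library, and stricter thresholds. Lengths, exons and 3′ UTRs came from GENCODE 29 (GRCh38), with 1 principal transcript per gene. It held all 50 members and 19369 of the 20442 symbols. At most 1.63% of the 50-base windows of a member's transcript (TYRO3) occurred in another gene. A comparison of protein sequences, planned as a description, was not made. Values per library were given for members called with an absolute log2 fold change of at least 0.5, for the most abundant member per length of each group, and for members whose call changed. For each role in the list of partner genes, the 3 smallest p and any other called gene at an absolute log2 fold change of at least 1 were named. PROS1, MST1 and NUDT6 were named for their relation to a member, and VEGFB, VEGFC and PGF for their relation to VEGFA, outside this rule. The members, the lists and the word TGAGTA were chosen with earlier results of these data known.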

Additional observations from a re-analysis of the deposited data

How the results depend on the processing

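Of 29 members called, 26 kept call and direction at an adjusted p under 0.05 in every other scaling, method, filter, block and leave-one-out fit that tested them. PDGFA, PDGFB and EPHB1 lost the call in at least 1, and EPHA2, EPHB4 and EFNA5 gained one, with the values given above. Of 543 member values, 523 kept direction and side of the threshold and 3 changed sign, all in genes not called. Leaving out 1 library at a time, IGF1R ranged from -0.14 to 0.0065 (log2; 0.0018 and 0.0065 without si-KNSTRN library 1 or 3) and EPHB3 from -0.13 to 0.25 (-0.13 without si-NC library 1). The leave-one-out counts of members ran from 12 to 16 higher and from 14 to 15 lower. Over the 12730 to 12762 genes tested in those fits, counts ran from 3624 to 3842 higher and from 3597 to 3859 lower. At an adjusted p under 0.01, 12 members were higher and 14 lower, beside 3284 and 3221 of the 12650 genes tested. With a fold of at least 1.5 added to the threshold of 0.05, 9 members were higher and 8 lower, 11 and 13 partner genes, and 1062 and 1362 of all genes. Other scalings shifted the median of all genes by -0.04 to 0.04 (log2). With the replicate block, 15 members were higher and 14 lower, 33 and 37 partner genes, and 3831 and 3857 of all genes. The labels do not say that a number marks a shared batch, and deviations of same-numbered libraries correlated at -0.063, 0.053 and -0.034, so the numbers were not taken as pairs. Members under about 50 reads per library, such as PDGFRB, EPHA3, DDR2 and TIE1, are limited by depth.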

Other observations

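Of 12 tested proteases, inhibitors and subunits that process ligands or shed receptors, 3 were called higher and 5 lower, 66.7% called, near the 62.5% of all genes tested. ADAM10, a sheddase that cleaves AXL, MET and ephrins, fell from 86.7 ± 3.06 to 55.1 ± 3.83 CPM (SD, n = 3; log2FC -0.66, SE 0.05, edgeR adjusted p = 2.9e-08). ADAM9 fell by 0.66 (SE 0.05), and FURIN, a convertase of proproteins that include several growth factors and receptors, rose by a log2FC of 0.77 (SE 0.05).

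Binding proteins and coreceptors had 3 of 19 tested called higher and 9 lower, 63.2% called, near the same 62.5% of all genes. IGFBP7 and IGFBP4, which encode binding proteins of the insulin-like growth factor family, fell by 0.80 (SE 0.05) and 0.57 (SE 0.05), and IGFBP7 shares 14.9% of its exonic bases with POLR2B on the other strand. PLXNB2, a semaphorin receptor gene related to the MET partner PLXNB1, fell by 0.61 (SE 0.05). FGFBP1, which encodes a secreted carrier that releases FGFs from the matrix, fell from 3.58 ± 0.463 to 1.16 ± 0.297 CPM (log2FC -1.63, SE 0.21, edgeR adjusted p = 3.7e-06), opposite to FGF2 and FGF5. The neuropilin genes, chosen after their values were seen, differed in direction: NRP1 fell by 0.40 (SE 0.05) and NRP2 rose by a log2FC of 0.62 (SE 0.06).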
